A study of Rattus norvegicus with 6 samples.

Results

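The genes described here are the enzymes that build cholesterol, the sterol regulatory element-binding proteins (SREBPs) that control them, and a few of the SREBP targets that make fatty acids. They were chosen by name, as the rows of the count table whose symbol was on a list of 29 genes, and all 29 were found among the 32883 genes of the table and among the 16250 genes tested. RNA was sequenced from the vestibular epithelium, which senses head movement and gravity in the inner ear, of 6 Long-Evans rats. The 3 STREP animals received streptomycin, an aminoglycoside antibiotic toxic to hair cells (HCs), at 500 mg/kg once a day under the skin for 6 weeks from postnatal day 21, and the 3 Control animals received the vehicle, PBS. Each group held 2 males and 1 female, and replicate 3 was the female in both. Each library came from 1 animal, with its 2 utricles and 6 cristae pooled and taken on the last day of treatment, so that the values average over HCs, supporting cells and whatever nerve and stroma was left on the tissue. The comparison asks which transcripts of this pathway differed after the exposure.

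Cholesterol is made from acetyl-CoA through mevalonate, the isoprenoid diphosphates, squalene and lanosterol, and the same early steps supply the lipid anchors of small GTPases. When membranes of the endoplasmic reticulum run short of sterol, the escort protein SCAP carries SREBP precursors to the Golgi, where they are cut, and the freed factors switch on sterol and fatty acid genes. INSIG proteins hold SCAP back when sterol is plentiful. Cholesterol is a main lipid of cell membranes and above all of myelin, and cells of peripheral nerve that make myelin are known for high activity of this pathway.

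The 3 members with an adjusted p-value under 0.05 were Hsd17b7, Ggps1 and Scd, and the start of each is shown for that reason. The sequences are the promoters of the RefSeq annotation on the rat assembly GRCr8, from 250 bases before to 50 bases after the gene's start, whereas the reads had been counted on Rnor6.0. Capitals mark CCAAT, the box bound by NF-Y, and GGGCGG, the box bound by Sp1, on either strand, since both factors are known to act beside SREBPs. Hsd17b7 lies at chr13:84722705-84723004 on the minus strand, Ggps1 at chr17:55958500-55958799 on the plus strand and Scd at chr1:253231682-253231981 on the minus strand.
Hsd17b7: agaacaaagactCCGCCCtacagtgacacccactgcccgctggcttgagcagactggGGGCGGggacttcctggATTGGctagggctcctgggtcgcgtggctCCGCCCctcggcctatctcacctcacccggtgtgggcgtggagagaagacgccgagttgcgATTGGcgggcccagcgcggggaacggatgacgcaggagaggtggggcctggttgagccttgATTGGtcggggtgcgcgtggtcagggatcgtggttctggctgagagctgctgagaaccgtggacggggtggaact
Ggps1: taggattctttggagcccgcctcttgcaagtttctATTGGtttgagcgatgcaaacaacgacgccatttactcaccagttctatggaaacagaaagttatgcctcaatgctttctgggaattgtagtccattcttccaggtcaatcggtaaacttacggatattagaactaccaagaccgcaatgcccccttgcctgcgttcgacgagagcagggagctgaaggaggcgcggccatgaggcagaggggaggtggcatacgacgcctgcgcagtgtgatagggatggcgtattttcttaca
Scd: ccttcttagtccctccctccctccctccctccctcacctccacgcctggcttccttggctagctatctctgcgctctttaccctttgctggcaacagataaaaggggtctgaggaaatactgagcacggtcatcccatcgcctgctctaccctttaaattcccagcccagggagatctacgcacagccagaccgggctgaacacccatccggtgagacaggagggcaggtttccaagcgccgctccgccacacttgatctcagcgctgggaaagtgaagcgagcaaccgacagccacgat
The Hsd17b7 promoter held 3 Sp1 boxes, which began 238, 193 and 147 bases before the start, and 3 NF-Y boxes, which began 176, 86 and 25 bases before it. The Ggps1 promoter held 1 NF-Y box, 215 bases before the start, and the Scd promoter held none of the motifs searched. None of these matches overlapped another.

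Across the 23 members with a promoter in the RefSeq table, CCAAT was found in 18 (78.3%, against 37.5% of all 33469 promoters) and GGGCGG in 18 (78.3%, against 33.1%). The E-box CACGTG was found in 3, those of Sc5d, Insig1 and Scap (13%, against 6.42%). The core of the sterol regulatory element, TCACNCCAC on either strand, was found in 0 of the 23 (1.12% of all promoters), which says only that these letters were not in these windows. Pmvk, Fdft1, Sqle, Stard4, Fasn and Acaca had no entry. The shares of all promoters were taken over every entry, without matching to the members for gene type or level of expression.

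Library totals ran from 48568191 to 59906048 counts in Control and from 29333584 to 33744909 counts in STREP animals, so depth and group cannot be told apart by library, and thinning every library to the smallest total left the same 2 members called. The members took between 0.344% and 0.415% of the counts of a library, and the lowest raw count of any of them was 102, for Stard4 in Control replicate 3. HC genes were present in every library, with Otof, which encodes a protein of the HC synapse, at 22945 to 29590.1 normalised counts, meaning counts divided by the library's DESeq2 size factor.

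Of the 29 genes, 1 was called lower (Hsd17b7) and 1 was called higher (Scd) in STREP animals, and 27 were not called. A call required a DESeq2 adjusted p-value under 0.05 over all genes tested and a change of more than 1.5-fold. Over all genes tested, 1.37% were called lower and 1.87% higher. With no fold threshold, 3 members passed, the third being Ggps1, against 3.72% of all genes. The edgeR quasi-likelihood test, which called 1.77% of its genes in either direction, called 1 member, Hsd17b7. Because the tissue is a mixture, fewer cells of a type and less RNA per cell cannot be told apart in these values.

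The signs of the changes were uneven. A negative log2 fold change was seen in 23 of the 29 members (79.3%, against 49.0% of all genes tested), and the median was -0.15 against 0.01 for all genes. Among the 19 enzymes from acetyl-CoA to cholesterol it was negative in 18, with Ggps1 as the exception, and the median was -0.28. The 3 STREP values lay wholly below the 3 Control values for 8 members (27.6%, against 8.63% of all genes tested) and wholly above for 2 (6.90%, against 9.12%). The 8 were all enzymes of sterol synthesis, namely Acat2, Mvd, Fdps, Fdft1, Lss, Nsdhl, Hsd17b7 and Ebp, and the 2 were Ggps1 and Scd. An unadjusted p-value under 0.05 on the lower side was reached by 8 members (27.6%, against 5.56% of all genes) and on the higher side by 2, where the share over all genes was 6.65%. These counts describe genes that share the same 6 animals and are known to be regulated together, so they were not tested as a list.

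**Figure D1:**
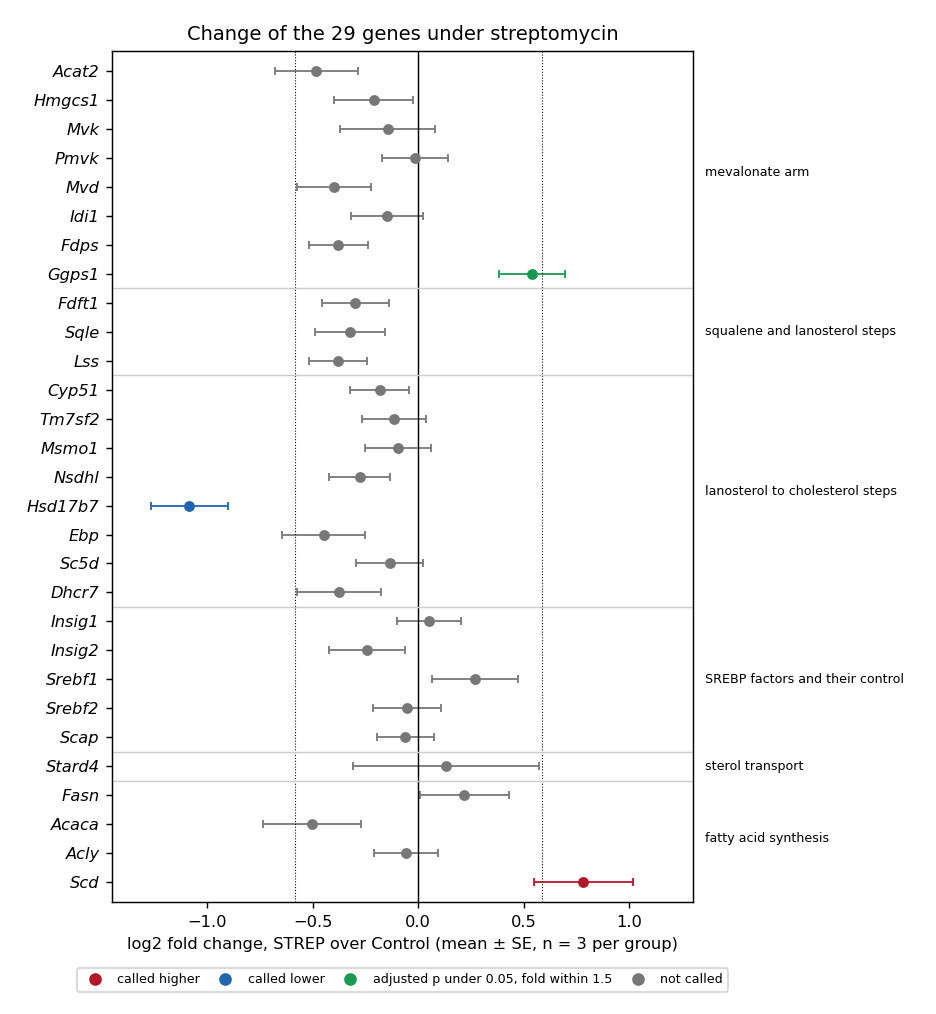
Log2 fold change of each of the 29 genes (horizontal axis, STREP over Control, DESeq2 estimate with its SE, n = 3 per group), grouped by role, with dotted lines at a 1.5-fold change. Hsd17b7 (-1.09) and Scd (0.78) lay past the dotted lines with an adjusted p-value under 0.05, Ggps1 (0.54) lay just inside them, and the points of 18 of the 19 sterol enzymes lay below 0.

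The largest change of the set was that of Hsd17b7, the reductase that completes each round of removal of methyl groups from the sterol ring and that can also act on estrogens. Its normalised counts were 2078, 1676 and 1437 in Control animals and 789.5, 845 and 812 in STREP animals. All 3 STREP values sat close together and well under the lowest Control value. The mean fell from 1730.5 ± 324 to 816 ± 28.1 (SD, n = 3). On the log2 scale the difference was -1.09 ± 0.18 (SE, adjusted p = 5.61e-07 by DESeq2), with a 95% interval from -1.44 to -0.73. The difference was -1.20 in males and -0.82 in females. It was called lower under every alternative run, and leaving out single animals moved the estimate between -1.20 and -0.94. The study that reported these data lists Hsd17b7 among the genes lower in all of its treated versus control comparisons. Those comparisons include the present one, so the listing is in part the same result. The others used the nitrile IDPN, in rats or mice. The same study marks the gene as selective for HCs over supporting cells, from the literature. The part of HCs in the value of Hsd17b7 was not tested.

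The lower level of Hsd17b7 was also seen against the other enzymes of its own pathway within each library, a ratio that no scaling factor can move. On the log2 scale, its count minus the mean log2 count of the other 18 sterol enzymes was -0.03, -0.25 and -0.53 in Control animals and -1.22, -0.97 and -1.17 in STREP animals, a difference of -0.85. Against Nsdhl, the enzyme of the step before it, the log2 ratio was -0.38, -0.51 and -0.69 in Control and -1.46, -1.13 and -1.37 in STREP animals. The 2 groups of ratios did not overlap in either case. Hsd17b7 was picked for these ratios because it was called, and they use the same counts, so they are not separate support. For Scd, the other called member, the ratios over Fasn, Srebf1 and its relative Scd2 overlapped between the groups. Over Scd2 the log2 ratio was -3.44, -3.65 and -2.53 in Control and -2.42, -2.21 and -2.98 in STREP animals.

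The partners of Hsd17b7 in this demethylation had smaller differences. Msmo1, the oxidase that attacks the methyl group, had a log2 fold change of -0.10 ± 0.16 (SE). Nsdhl, the dehydrogenase that then removes the carbon, had 2697, 2395 and 2325 normalised counts in Control animals and 2169, 1855 and 2100.3 in STREP animals. Every STREP value of Nsdhl lay under every Control value, but the log2 fold change of -0.28 ± 0.14 did not pass the test (DESeq2 adjusted p = 0.432).

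The other enzymes between lanosterol and cholesterol were not called. Ebp, the isomerase that moves the double bond of the ring, had 681, 579 and 634 normalised counts in Control and 513, 467 and 407 in STREP animals (log2 fold change -0.45 ± 0.20, DESeq2 adjusted p = 0.263). Dhcr7, which carries out the last reduction of one branch, had 1168, 1249.6 and 1061 in Control and 1106, 733 and 845 in STREP animals, with STREP replicate 1 inside the Control range (-0.37 ± 0.20, DESeq2 adjusted p = 0.446). Cyp51, the demethylase that acts on lanosterol itself, Sc5d, a desaturase, and Tm7sf2, a sterol reductase, had log2 fold changes of -0.18, -0.14 and -0.12, and their groups overlapped.

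At the middle of the pathway, Fdft1 joins 2 farnesyl units into squalene, Sqle oxidises squalene and Lss closes it into lanosterol. Lss had 4112, 4763 and 4678 normalised counts in Control animals and 3388, 3785 and 3239 in STREP animals, with no overlap (log2 fold change -0.38 ± 0.14, DESeq2 adjusted p = 0.114). For Fdft1 the Control values of 8912, 9002 and 9409 stood against 7916, 5899 and 8401 (-0.30 ± 0.16, DESeq2 adjusted p = 0.446). Here STREP replicate 2 was far below the other 5 animals, which lay near each other. Sqle had 3499, 2722 and 3535 in Control and 2948, 2407 and 2444 in STREP animals, and its groups overlapped (-0.32 ± 0.16, DESeq2 adjusted p = 0.409). None of these 3 genes was called by DESeq2 or edgeR, and Sqle and Lss reached an unadjusted p-value under 0.05.

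The arm from acetyl-CoA to the isoprenoid diphosphates held the gene that went the other way. Ggps1 makes geranylgeranyl diphosphate, which leaves sterol synthesis and is attached to Rab and other small GTPases. Its normalised counts were 1074, 1018 and 888 in Control and 1343, 1482 and 1505 in STREP animals, so that every STREP animal exceeded every Control animal. The means were 993 ± 95.7 and 1444 ± 87.5 (SD, n = 3), and the log2 difference of 0.54 ± 0.16 (SE, adjusted p = 0.0225 by DESeq2) is within 1.5-fold. With edgeR and a count filter the adjusted p-value was 0.0878, in males alone 0.432, with library totals as size factors 0.456, and leaving out Control replicate 2 or 3 or STREP replicate 2 or 3 gave values from 0.0806 to 0.137. Without Control replicate 1 and without STREP replicate 1 it was called higher (0.59 in both).

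Fdps, which makes farnesyl diphosphate, the substrate that Ggps1 extends and Fdft1 joins, had 7503, 7247 and 8176 normalised counts in Control and 5967, 5149 and 6521 in STREP animals. No STREP value reached the Control range (log2 fold change -0.38 ± 0.14, DESeq2 adjusted p = 0.129). In DESeq2 the adjusted p-value was 0.0367 with sex in the model and 0.0196 without STREP replicate 3, both with a fold within 1.5. Acat2, the cytosolic thiolase that starts the route, had 929, 908 and 741 in Control and 553, 581 and 714 in STREP animals (-0.48 ± 0.20, DESeq2 adjusted p = 0.196). Mvd, which makes isopentenyl diphosphate by decarboxylation, had 1455, 1109 and 1227 in Control and 969, 1025 and 883 in STREP animals (-0.40 ± 0.17, DESeq2 adjusted p = 0.264). The females of the 2 groups were close for Acat2, at 741 and 714, and the males stood further apart.

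Differences were smaller still for Hmgcs1, which condenses the early units (log2 fold change -0.21 ± 0.19), for Idi1, the isomerase of isopentenyl diphosphate (-0.15 ± 0.17), for the mevalonate kinase Mvk (-0.15 ± 0.23) and for the next kinase, Pmvk (-0.01 ± 0.16). Their 95% intervals all included 0, and that of Pmvk ran from -0.32 to 0.29. The mean level of Pmvk was 992 ± 52.7 in Control animals and 981 ± 61.9 after streptomycin (SD, n = 3).

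**Figure D2:**
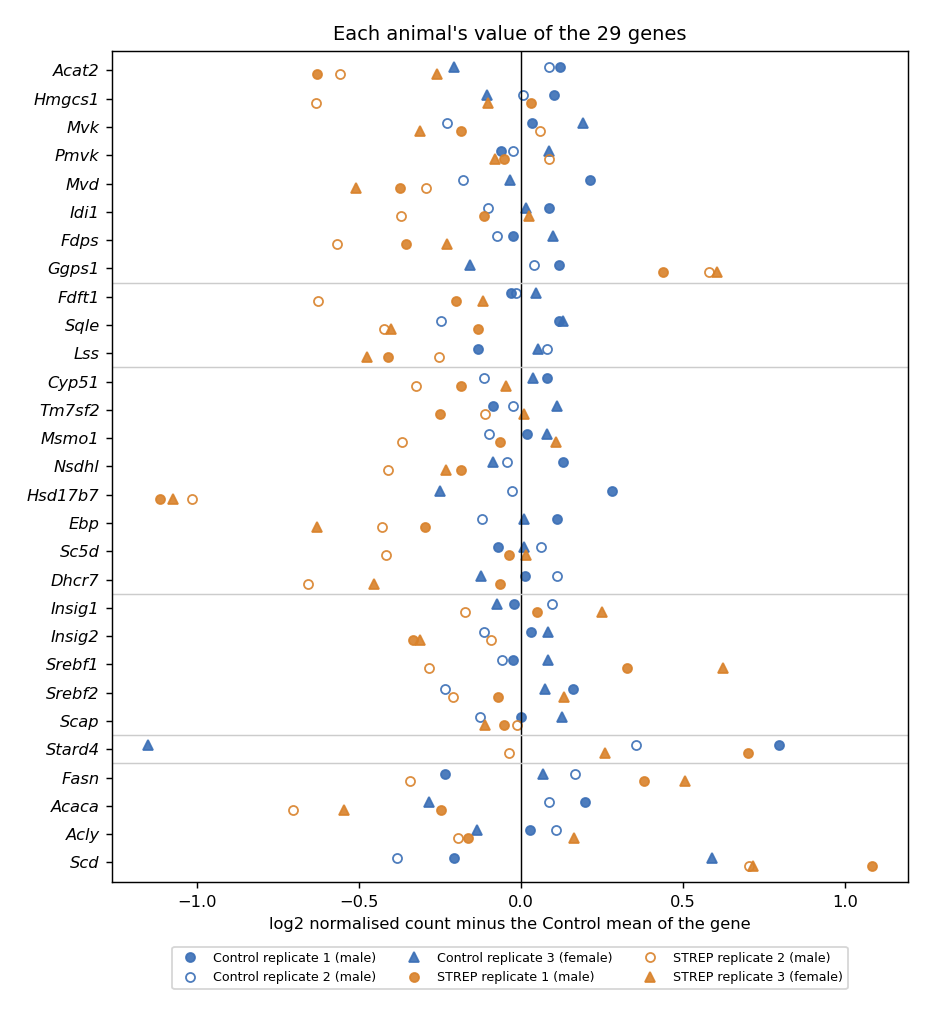
Log2 normalised count of each gene in each animal, minus the mean of the Control animals for that gene (horizontal axis), with Control in blue, STREP in orange, males as circles, females as triangles and replicate 2 of each group as an open circle. STREP points lie mostly left of 0 among the sterol enzymes and right of 0 for Ggps1 and Scd, and the open orange circle of STREP replicate 2 is the leftmost point of many rows.

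The factors and regulators of the SREBP system were not called, and none had an unadjusted p-value under 0.05 or groups that did not overlap. Srebf2, which encodes the SREBP known for sterol genes, had 5923, 4500.4 and 5579.7 normalised counts in Control and 5043, 4581 and 5812 in STREP animals (log2 fold change -0.05 ± 0.16, DESeq2 adjusted p = 0.973, 95% interval -0.37 to 0.26). Scap had 3122.5, 2864 and 3413 in Control and 3012, 3101 and 2896 in STREP animals (-0.06 ± 0.13). Insig1, itself an SREBP target, had 4308, 4674 and 4159.9 in Control and 4528, 3877 and 5201 in STREP animals (0.05 ± 0.15). The order of the animals differed from gene to gene, with no group on one side.

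Insig2, which does the same job as Insig1 and is known to respond less to SREBPs, had 752, 679 and 778 normalised counts in Control and 583, 689.9 and 592 in STREP animals. Its log2 fold change was -0.24 ± 0.18 (DESeq2 adjusted p = 0.692), and STREP replicate 2 was the animal that overlapped the Control range.

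Srebf1, which encodes the SREBP known above all for fatty acid genes, had the widest relative spread of the members between STREP animals (CV 30.2%). Its normalised counts were 28897, 28186 and 31159 in Control animals and 36877, 24108 and 45335 in STREP animals. STREP replicate 2 held the lowest value of all 6 animals and the other STREP animals the highest. The log2 fold change was 0.27 ± 0.20 (DESeq2 adjusted p = 0.703). Without STREP replicate 2 it was 0.48 (DESeq2 adjusted p = 0.0304, within 1.5-fold), and without STREP replicate 3 it was 0.05.

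Among the genes of fatty acid synthesis, Scd, a desaturase that makes monounsaturated fatty acids, was called higher. Its normalised counts were 7822, 6919 and 13572 in Control and 19120.1, 14709.5 and 14839 in STREP animals. The STREP values all exceeded the Control values, but the female Control animal, at 13572, lay far closer to the STREP animals than to the Control males. The mean rose from 9438 ± 3609 to 16223 ± 2509.8 (SD, n = 3), or by 0.78 ± 0.23 on the log2 scale (SE, adjusted p = 0.0271 by DESeq2). The call was lost with edgeR (adjusted p = 0.202 with a count filter), with library totals as size factors (DESeq2 adjusted p = 0.0862), and without Control replicate 1 or 2 or any 1 of the STREP animals (DESeq2 adjusted p from 0.0508 to 0.399). Expected counts divide reads between similar genes, and rat Scd has close relatives such as Scd2, so its level and difference are uncertain. Scd2 was the more abundant, at 68180 to 117333 normalised counts over all animals, against 6919 to 19120.1 for Scd. How far reads of Scd2 entered the Scd counts was not tested. The log2 difference of Scd2 itself was 0.20 ± 0.19 (adjusted p = 0.809 by DESeq2).

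Within sexes, the log2 difference of Scd was 1.20 in males, 2 per group, and 0.13 in females, 1 per group. Among males alone Scd was called higher (1.20, DESeq2 adjusted p = 1.58e-09), as it was without Control replicate 3, the female (1.14, DESeq2 adjusted p = 7.17e-08), and with sex in the model (0.85, adjusted p = 0.00373 by DESeq2). The sex by group interaction was -1.07 ± 0.30 for females over males and did not pass (unadjusted p = 0.000329, DESeq2 adjusted p = 0.0982). In that test 0 of 29 members passed, 3 had an unadjusted p-value under 0.05 and 0.259% of all genes tested passed, and no second tool was run for it. With 1 female per group, the female difference has no replicate.

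The other genes of this role were not called. Fasn, the fatty acid synthase, had 25154, 33179 and 31035 normalised counts in Control and 38539.7, 23338 and 42038 in STREP animals, with STREP replicate 2 again lowest (log2 fold change 0.22 ± 0.21, DESeq2 adjusted p = 0.814). Acaca, the carboxylase that supplies it, had 654, 606 and 468 in Control and 481, 349.8 and 390.4 in STREP animals (-0.50 ± 0.23, DESeq2 adjusted p = 0.312), with 1 STREP value inside the Control range. Acly, which makes cytosolic acetyl-CoA from citrate for both pathways, had a log2 fold change of -0.06 ± 0.15. Stard4, which carries sterol between membranes, had the fewest counts and the widest relative spread in Control animals, at 338, 249 and 87.7 in Control and 317, 190.0 and 233 in STREP animals (0.13 ± 0.44, DESeq2 adjusted p = 0.974).

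**Figure D3:**
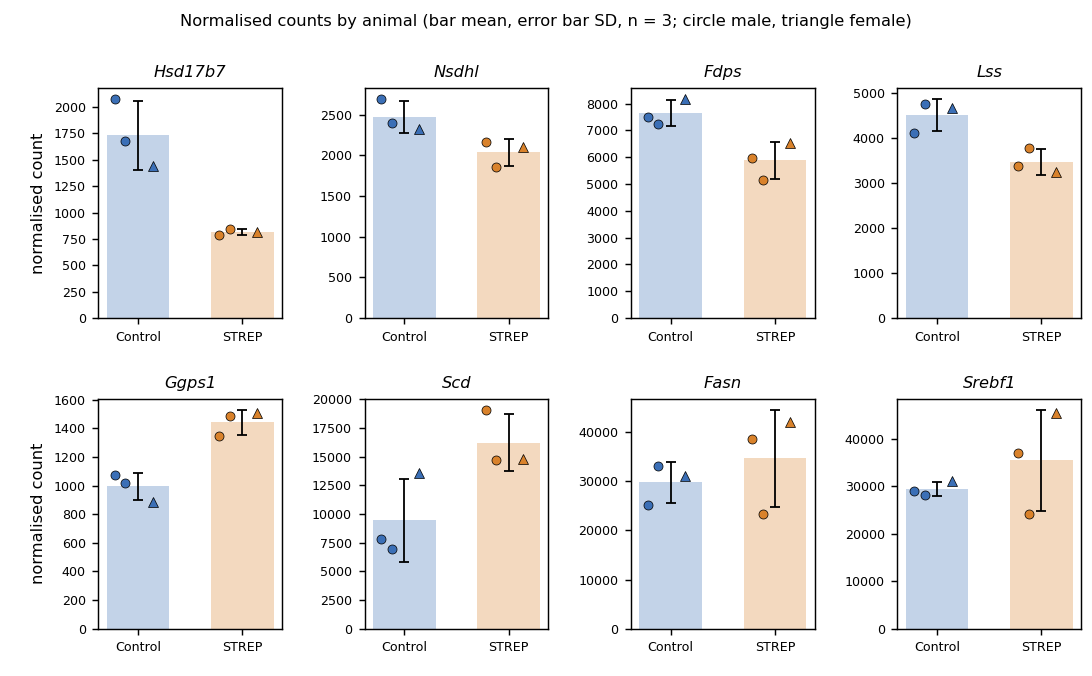
Normalised counts (vertical axes, from 0) of 8 of the genes by group, with the mean as a bar, the SD as an error bar (n = 3) and each animal as a circle (male) or a triangle (female). The 3 STREP values of Hsd17b7 lie between 789.5 and 845 under all Control values, those of Ggps1 and Scd lie above, and those of Fasn and Srebf1 spread on both sides of the Control values.

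The estimates of Hsd17b7, Ggps1, Scd and Srebf1 were recomputed under other count models, scalings, filters and sets of animals. Hsd17b7 stayed between -1.20 and -0.94. Ggps1 ran from 0.43 to 0.59, Scd from 0.60 to 1.20 and Srebf1 from 0.05 to 0.48.

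**Figure D4:**
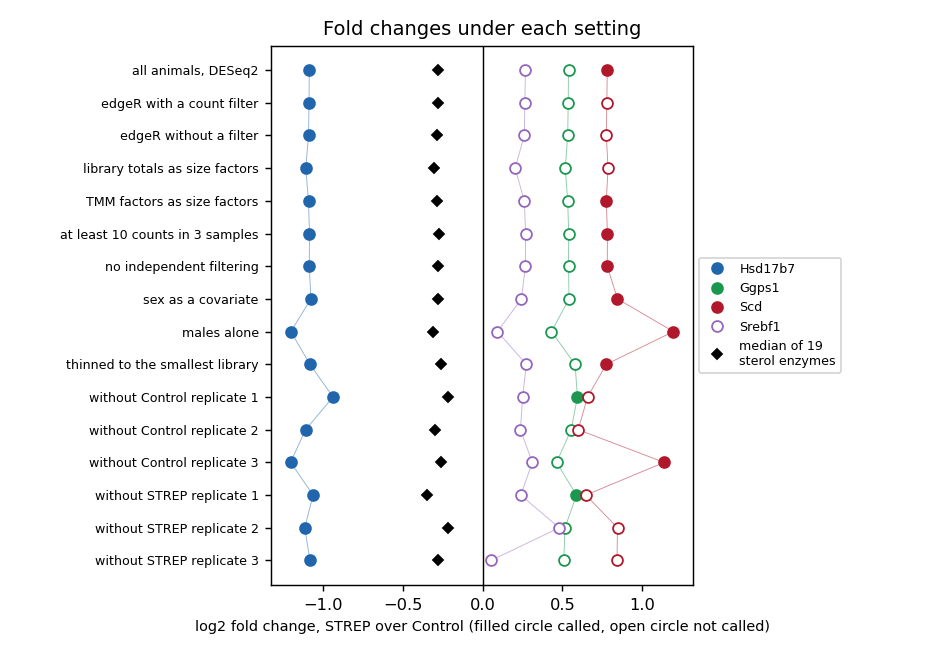
Log2 fold change (horizontal axis, STREP over Control) of 4 genes and the median of the 19 sterol enzymes under each setting (rows), with filled circles where the gene was called and open circles where it was not. The Hsd17b7 circles are filled in all rows, those of Scd in 8 of the 16, those of Ggps1 in 2 and those of Srebf1 in none.

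The lower values of the sterol enzymes were not equal in the 3 STREP animals. The median deviation of the 19 enzymes from their Control mean, on the log2 scale, was 0.08, -0.03 and 0.02 in the Control animals and -0.18, -0.41 and -0.23 in the STREP animals, each in the order of replicates 1, 2 and 3. Each STREP animal was thus below each Control animal, and STREP replicate 2 was lowest. Of the 19 enzymes, 17, 16 and 14 were below their Control mean in STREP replicates 1, 2 and 3 (89.5%, 84.2% and 73.7%), where the share over 12126 genes with a mean of at least 100 normalised counts was 51.7%, 51.7% and 50.1%. STREP replicate 2 held the lowest of the 6 values for 15 of the 29 members (51.7%, against 19.8% of those genes) and for 10 of the 19 enzymes. Left out, it changed the median of the enzymes to -0.21, and the STREP values then lay wholly below Control for 8 of the 19 enzymes and 9 of the 29 members (31%, against 14.2% of all genes tested).

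For the other 10 members, which are Stard4, the SREBP system and the fatty acid genes, the median deviation was 0.01, 0.01 and 0.07 in Control and 0.00, -0.18 and 0.21 in STREP replicates 1, 2 and 3. These medians fell on both sides of the Control values, and again STREP replicate 2 was lowest.

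Myelin markers were also lowest in STREP replicate 2. Of the 12 markers of myelin and Schwann cells, 11 had a negative log2 fold change (median -0.39), and their summed level ran from 286904 to 386400 normalised counts in Control and from 159926 to 318326 in STREP animals. Their median deviation was -0.08, 0.14 and -0.06 in Control and -0.04, -0.94 and -0.33 in STREP replicates 1, 2 and 3. STREP replicate 2 was lowest of the 6 animals for 9 of the 12. Control replicate 2 was highest for 9 of the 12, while its enzyme median of -0.03 was the lowest of the Control animals. No marker was at 0 in any library. Prx, a protein of the Schwann cell membrane, was called lower (-0.68, DESeq2 adjusted p = 0.0425, with values from 1.74e-06 to 0.262 when single animals were left out), and Sox10, a Schwann and glial transcription factor also found in other ear cells, was called higher (0.95, DESeq2 adjusted p = 0.000104). In STREP replicate 1 the enzymes were at -0.18 while the myelin markers were at -0.04. The part of myelin in the enzyme values was not tested.

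**Figure D5:**
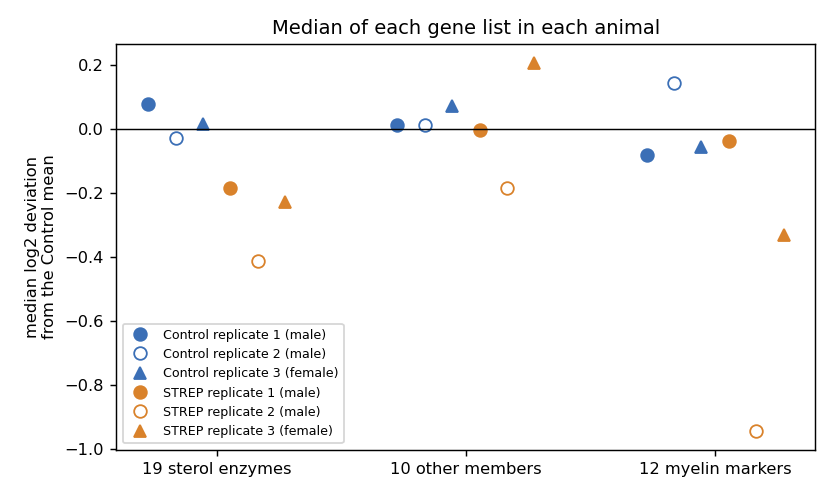
Median log2 deviation from the Control mean (vertical axis) of the 19 sterol enzymes, the other 10 members and 12 myelin markers in each animal, with Control in blue, STREP in orange, males as circles, females as triangles and replicate 2 of each group open. STREP replicate 2 is lowest in all 3 columns, at -0.41, -0.18 and -0.94, and the 3 STREP animals lie below the 3 Control animals for the sterol enzymes.

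Other cell markers were read for the same reason. Of 4 markers of dark cells, which secrete endolymph, 3 had a negative log2 fold change and their summed level was 26511 to 27018 normalised counts in Control and 15646 to 20756 in STREP animals, without overlap, although DESeq2 called none and 2 had an unadjusted p-value under 0.05. Lowest was Kcne1 (-0.79) and highest Bsnd (0.05), and Slc12a2 passed the adjusted p-value with a fold within 1.5 (-0.55, DESeq2 adjusted p = 0.0035). Most of that sum is Slc12a2, with 21842 of 26695 normalised counts in the Control mean, and the groups overlapped for each of the other 3. Of 10 HC markers 8 were negative, Pvalb was called lower (-1.44) and Gfi1 higher (1.20). Myo7a (-0.49, DESeq2 adjusted p = 0.0162) and Lhfpl5 (-0.45, DESeq2 adjusted p = 0.0161) also passed the adjusted p-value, both lower without overlap and within 1.5-fold, so that 3 of the 4 that passed were lower. The summed HC level was 81419 to 86421 in Control and 70552 to 84623 in STREP animals. The defining adipocyte genes were at or near 0, with Lep at 0 in every library and Adipoq at most 4.91 normalised counts, while Cfd, which other cells also make, was called higher (1.31). Cidec, a lipid droplet gene of the same list, was not near 0 and went the other way, with 120.3, 118 and 102 normalised counts in Control and 39.9, 71.3 and 52.4 in STREP animals, without overlap (-1.05, DESeq2 adjusted p = 0.178). Of 11 supporting cell markers 8 were positive and none was called by DESeq2, from Cldn14 at -0.14 to Jag1 at 0.53, with 4 at an unadjusted p-value under 0.05. The part of these cells in the members' values was not tested.

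In the lists of neuron, macrophage, melanocyte, fibroblast, and blood and vessel markers, the single call was Tubb3, a neuronal tubulin, which was higher (1.28, DESeq2 adjusted p = 0.0182) at 79.1 to 184 normalised counts in Control and 236 to 377 in STREP animals. Extremes with a mean of at least 100 were Gap43 (-0.64) among neuron markers, C1qb (0.47) and Aif1 (0.05) among macrophage markers, Tyr (-1.06) and Pmel (0.29) among melanocyte markers, Dcn (-0.45) and Pdgfra (0.11) among fibroblast markers, and Hbb (-0.56) and Cdh5 (0.25) among blood and vessel markers.

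Among 74 further genes of sterol and lipid handling found in the table, of 75 listed, 1 was called, and it was lower, where 1.37% of all genes tested were called lower and 1.87% higher, so the count is near the background. Acss2, the cytosolic acetyl-CoA synthetase and an SREBP target, makes acetyl-CoA from acetate for both sterols and fatty acids. It had 11067, 11467 and 11579 normalised counts in Control animals and 6323, 5439 and 7982 in STREP animals. The 3 Control values lay within a narrow band, far above the highest STREP value. The log2 difference was -0.79 ± 0.16 (SE, adjusted p = 8.57e-05 by DESeq2), and it was called lower under every alternative run, from -0.95 to -0.67.

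Acss2 belonged to a list of 20 other sterol and SREBP target genes, in which 14 log2 fold changes were negative and the median was -0.17. Lowest was Acss2 and highest was Me1, the malic enzyme that yields NADPH for fatty acid synthesis (0.37 ± 0.15, DESeq2 adjusted p = 0.189). In this list 7 genes had an unadjusted p-value under 0.05 on the lower side (35%, against 5.56% of all genes tested) and 1 on the higher side (5%, against 6.65%). The groups did not overlap for 6 on the lower side (30%, against 8.63%) and 1 on the higher (5%, against 9.12%). Summed, the list stood at 149446 to 151078 normalised counts in Control and 120411 to 181531 in STREP animals, a sum that Scd2 dominates, and STREP replicate 2 was again the lowest.

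The 14 genes that process SREBPs or degrade sterol enzymes leaned the other way, with 11 positive log2 fold changes and a median of 0.13. DESeq2 and edgeR called none, and 2 had an unadjusted p-value under 0.05, both higher. Mbtps2, the protease of the second SREBP cut, was highest (0.41 ± 0.31) and Rnf145, a ubiquitin ligase, lowest (-0.11 ± 0.14).

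Of the 8 genes of cholesterol efflux and the liver X receptors, none was called or had an unadjusted p-value under 0.05 in DESeq2, and edgeR called none. They ran from Nr1h2, a liver X receptor (-0.23 ± 0.16), to Abca1, a sterol exporter (0.34 ± 0.20), among genes with a mean of at least 100 normalised counts. The 16 genes of sterol uptake, storage and transport ran from Lrp8, a lipoprotein receptor (-0.48 ± 0.28), to Osbpl2, an oxysterol-binding protein (0.53 ± 0.17, DESeq2 adjusted p = 0.0655). Osbpl2 had 1089, 1092 and 1443 normalised counts in Control and 1622, 1705 and 1889 in STREP animals. Every STREP value was above every Control value, and it was called higher without Control replicate 3 (0.67, DESeq2 adjusted p = 0.00373). No gene of that list was called by DESeq2 or edgeR with all animals, and 3 had an unadjusted p-value under 0.05.

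Neither the 6 genes of oxysterol and bile acid synthesis nor the 10 of the isoprenoid branch held a gene called by DESeq2 or edgeR, or 1 with an unadjusted p-value under 0.05. The first ran from Cyp46a1, a sterol hydroxylase of neurons (-0.30 ± 0.29), to Cyp7b1 (0.26 ± 0.26). In the isoprenoid branch, which holds the transferases that use the products of Fdps and Ggps1, values ran from Fnta, a subunit of farnesyltransferase (-0.25 ± 0.14), to Rabggtb, a subunit of the enzyme that prenylates Rab proteins (0.16 ± 0.16).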

How the data were processed

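RNA from the vestibular epithelium of 3 Control and 3 STREP rats was made into SMART-seq2 libraries (oligo-dT primed, amplified, with no molecular identifiers and no strand stated) and sequenced as paired reads. Per the labels, the authors aligned reads with STAR 2.5.3a and quantified genes with RSEM 1.3.0, versions that come from the submitters' processing notes. Their genome was Rnor6.0 with its release of the Ensembl annotation. The authors deposited expected counts per gene, unscaled, of which 0 values were not whole, so rounding changed nothing. RSEM divides reads among similar genes, so genes with near-identical copies are uncertain, and without strand so are overlapping genes. Acat2, Hmgcs1, Idi1, Fdps, Fdft1, Insig1, Srebf1, Srebf2 and Acaca each overlap another gene in RefSeq.

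Counts were fitted in R 4.3.3 with DESeq2 1.42.0 on all genes and all 6 animals, with group as the only factor, Wald tests, and independent filtering and Benjamini-Hochberg adjustment at 0.05. A gene was called at an adjusted p-value under 0.05 and a fold over 1.5, the study's rule. The edgeR 4.0.16 quasi-likelihood test, other scalings and filters, sex as a covariate, males alone, thinned libraries and leaving out each animal were alternatives. The count of genes without overlap when each animal was left out was added after seeing the data. The fits were tested on simulated data. Libraries held 29333584 to 59906048 counts. A floor of 3 counts was 0.0501 to 0.102 CPM, counting error only. Intervals are 95% Wald intervals.

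Groups came from the labels. Titles carry no replicate number, so replicates were numbered in order of deposition and pair no animals. The titles of STREP replicates 1 and 2 share their leading code, which no other titles do. What that code stands for was not stated. The letters after it are LF for STREP replicate 2 and RF for every other sample. The study describes the samples of a group as separate animals, and the p-values rest on that. The sample labels used here name no batch, so none was modelled. P-values set a difference against the spread between these animals, and DESeq2 and edgeR estimate that spread with information shared between genes.

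The members and all lists were chosen with earlier results of these data known. Named were all 29 members, with each animal's value for members that were called or had an adjusted p-value under 0.05, for Srebf1, Srebf2, Scap, Insig1 and Insig2 and for the 2 highest and 2 lowest fold changes with a mean of at least 100 normalised counts, and from each further list the called genes and the highest and lowest with that mean. Values of other members, Otof, Osbpl2, Scd2, Slc12a2, Lep, Adipoq, Cidec, Myo7a and Lhfpl5 were given after their values had been seen. Promoters were searched on both strands for the motifs spelled out with the promoters, with members matched by symbol.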

Additional observations from a re-analysis of the deposited data

How the results depend on the processing

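The labels number no replicates across groups. No paired analysis was possible because the sample titles carry no shared replicate numbers. For single members, 253 of 261 values under other settings kept their sign and their side of the call, 3 were no longer called and 5 changed sign, and with single animals left out 156 of 174 kept both, 5 were no longer called, 2 were newly called and 11 changed sign. The number of genes called among all was 264 with edgeR and a count filter, 295 with edgeR and no filter and 309 with library totals as size factors, and the number of members called was 1 in each of these. Leaving out single animals gave 424 to 517 genes, 1 to 2 members and 1 to 2 genes of the further lists called. The median of the members was -0.19 with library totals and -0.22 in males alone, and -0.22 to -0.12 without single animals, where that of the sterol enzymes was -0.35 to -0.21. In males alone the sign changed for Mvk (0.032), Pmvk (0.059), Insig1 (-0.10), Scap (0.028) and Stard4 (-0.22). Without single animals it changed for Pmvk (-0.071 to 0.029), Msmo1 (-0.21 to 0.020), Insig1 (-0.059 to 0.15), Srebf2 (-0.16 to 0.025), Scap (-0.12 to 0.0047), Stard4 (-0.25 to 0.55) and Acly (-0.18 to 0.0037), none of them called. The cause was not tested. The scaling that moved the median of all genes most was library totals, by -0.0129 on the log2 scale. With 3 animals a group, the 95% intervals of most members leave room for changes of either sign.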
